A study of Mus musculus with 35 samples.

Results

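Interferon-stimulated genes are the genes that cells transcribe when interferons bind their receptors, and 39 of them, taken by symbol, are described here in mouse lung 24 h after code-named nanomaterials were placed in the airways. Members were found as the array probes whose RefSeq accession mapped to 1 of these symbols. Of the 39 genes 37 had such a probe, 50 of the 55681 probes on the array, and all 37 passed the filter on dim probes and were tested among 25501 features. Mx1 and Mx2, which encode antiviral dynamin-like GTPases, matched no probe by accession and were not analysed here. The rule for members is a list of symbols and uses no measured value, but the list was drawn up with earlier results of these arrays known.

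The study profiled lung RNA on 35 2-colour arrays in 7 groups of 5 and, per its title, set out to rank nanomaterials by how far they perturb lung pathways. Each array held 1 lung sample labelled with Cy5 and a universal mouse reference RNA, from a pool of mouse cell lines, labelled with Cy3. Values are therefore log2 ratios of lung to reference, and a change is a difference of group means on that scale. All mice were female C57BL/6 animals of 5 to 7 weeks, and no allele or transgene is named for any group. The 6 exposed groups received, by a single instillation into the trachea, 18 or 54 µg of 1 of 3 materials, coded NRCWE-043, NRCWE-044 and NRCWE-045, suspended in 40 µl. Controls received 0 µg, and what else they received is not stated. Total RNA came from random pieces of frozen lung. Whether each array of a group stands for its own mouse is not stated, so p-values cover only the spread among these samples, which may be technical in part.

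Interferons are secreted proteins released when cells sense viral or other misplaced nucleic acid or, for interferon gamma, by activated lymphocytes. Type I and type III interferons lead to a complex with STAT2 and IRF9 that binds the interferon-stimulated response element, while interferon gamma acts through a shorter site, called the STAT site here. The genes reached in this way encode sensors, signalling factors and antiviral proteins, and in the lung they are best known from respiratory virus infection.

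Start-site sequences of 6 members are shown, 5 with the response element of the family and Irf1 with the STAT site alone. RefSeq windows of 300 bases on GRCm38.p6, from 250 bases before to 50 after a transcript start, were found for 30 of the 37 members. They were searched on both strands for the core of the response element, GAAA followed by any 2 bases and a further GAAA, and for the STAT site TTCNNNGAA. The array files carry no coordinates. Capitals mark every match, and each sequence runs 5′ to 3′ on the strand of its gene. Isg15 lies on the minus strand at chr4:156200769-156201068, Ifit1 on the plus strand at chr19:34640639-34640938, Ifit3 on the plus strand at chr19:34583279-34583578, Eif2ak2 on the minus strand at chr17:78882523-78882822, Igtp on the plus strand at chr11:58199306-58199605, and Irf1 on the plus strand at chr11:53769764-53770063.
Isg15: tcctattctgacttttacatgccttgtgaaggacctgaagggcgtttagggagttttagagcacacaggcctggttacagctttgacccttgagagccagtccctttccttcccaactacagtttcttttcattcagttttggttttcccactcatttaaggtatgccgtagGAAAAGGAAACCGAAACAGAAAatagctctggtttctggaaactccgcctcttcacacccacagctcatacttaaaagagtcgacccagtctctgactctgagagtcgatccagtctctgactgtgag
Ifit1: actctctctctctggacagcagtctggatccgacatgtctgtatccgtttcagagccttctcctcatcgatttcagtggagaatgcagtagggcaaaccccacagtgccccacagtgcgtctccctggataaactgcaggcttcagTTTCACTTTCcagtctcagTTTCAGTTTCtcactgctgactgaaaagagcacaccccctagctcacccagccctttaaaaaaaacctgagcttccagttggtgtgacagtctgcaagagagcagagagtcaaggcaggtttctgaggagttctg
Ifit3: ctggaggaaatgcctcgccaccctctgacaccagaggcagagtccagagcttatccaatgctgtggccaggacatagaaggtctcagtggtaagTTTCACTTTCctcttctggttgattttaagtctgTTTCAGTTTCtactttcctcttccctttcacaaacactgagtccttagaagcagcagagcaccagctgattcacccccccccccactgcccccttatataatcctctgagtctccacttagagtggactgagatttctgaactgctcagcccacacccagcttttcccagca
Eif2ak2: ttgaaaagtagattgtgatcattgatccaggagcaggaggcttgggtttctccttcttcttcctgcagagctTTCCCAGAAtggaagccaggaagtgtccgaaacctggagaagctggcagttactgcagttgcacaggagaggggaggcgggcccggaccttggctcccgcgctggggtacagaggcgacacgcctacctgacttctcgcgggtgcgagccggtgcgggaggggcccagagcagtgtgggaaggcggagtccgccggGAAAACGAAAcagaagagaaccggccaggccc
Igtp: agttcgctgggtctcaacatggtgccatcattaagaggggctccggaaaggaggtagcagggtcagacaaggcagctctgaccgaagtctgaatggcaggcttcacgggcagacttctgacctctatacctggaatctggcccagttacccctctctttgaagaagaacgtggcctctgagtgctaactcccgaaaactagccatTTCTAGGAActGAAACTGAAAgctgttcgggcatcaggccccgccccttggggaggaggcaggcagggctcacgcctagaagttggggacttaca
Irf1: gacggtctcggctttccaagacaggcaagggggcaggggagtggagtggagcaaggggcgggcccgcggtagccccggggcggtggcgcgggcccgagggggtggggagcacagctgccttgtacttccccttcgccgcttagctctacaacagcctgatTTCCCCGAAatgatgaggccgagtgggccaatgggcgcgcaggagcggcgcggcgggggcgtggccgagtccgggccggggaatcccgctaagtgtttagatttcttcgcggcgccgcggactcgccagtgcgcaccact

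The Isg15 window held 3 overlapping copies of the response element, beginning at -78, -72 and -66 from the transcript start. Ifit1 and Ifit3 held 2 separate copies each, read on the opposite strand. Eif2ak2 held 1 copy just after its start and a STAT site at -178, Igtp held both kinds of site side by side at -45 and -34, and the Irf1 window shown held a STAT site at -90 and no response element. Over the members, 17 of 30 with a window held the response element (56.7%), against 3.99% of 27025 genes and 3.44% of all windows. The STAT site was found in 10 of 30 members (33.3%) against 9.55% of genes, and 5 members held both. No match to either site was found in the windows of Irf7, Irf9, Oasl1, Oasl2, Cmpk2, Ifi44, Xaf1 and Lgals3bp. That says only that these letters are not in those windows of 300 bases.

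**Figure D1:**
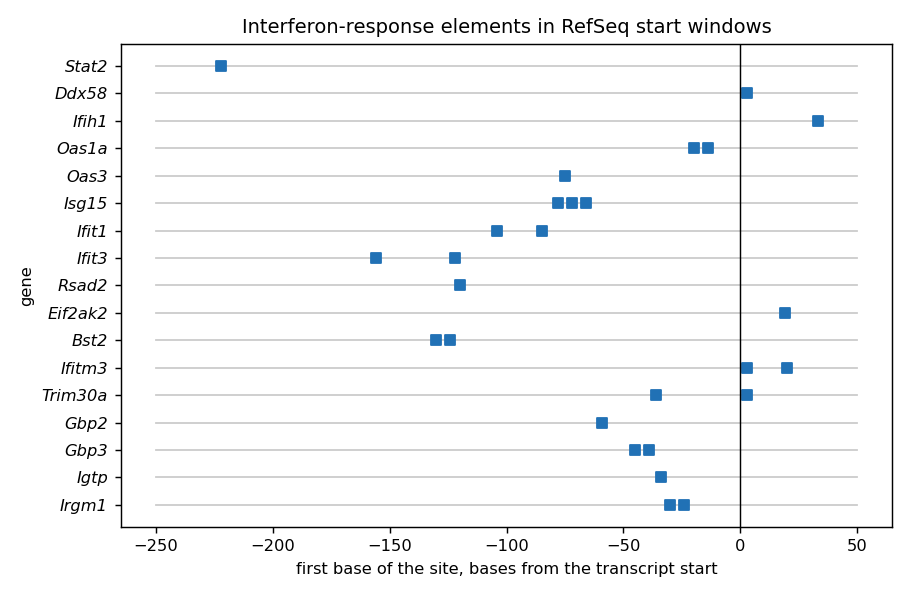
Position of each response element in the RefSeq windows of the 17 members that hold one, in bases from the transcript start (horizontal axis), 1 gene per row and 1 square per site; grey lines span the window. Most squares lie before the start, and Isg15 has 3 in a row at -78, -72 and -66.

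Several arrays stood apart before any comparison. Between 42.8 and 69.3% of probes per array were well above background in Cy5. Of 37 members 33 were scored above it on every array, with a missing value counted as not above. Control replicate 7 scored 0.89 on the 831 features that set NRCWE-043 arrays apart from the other materials at both doses, on a scale where NRCWE-043 arrays ran from 0.92 to 1.06, other treated arrays from -0.17 to 0.25 and the other controls from -0.21 to 0.25. Of these 831 features 0 were members. Markers of heart muscle were high in control replicates 2 and 29 (a mean log2 ratio of 2.54 and 2.72, against 0.036 to 0.26 in the other controls), and 13 arrays over all groups were high in heart or adipose markers (above 1.5 or 2.5), among them 3 of 5 at 54 µg with NRCWE-043 and 3 of 5 with NRCWE-044. The median Cy5 signal was 345.5 on replicate 23 of NRCWE-044 at 18 µg and 230 on replicate 24 of NRCWE-044 at 54 µg, against 85.5 to 136 on the other arrays. Replicate 23 was the highest array of its group for several members, among them Dhx58, Oasl2, Isg15, Bst2, Oas2, Irf7 and Irgm1, and the lowest for Trim30a. Its mean log2 ratio over the 37 members was 0.64, against -0.047 to 0.29 on the other arrays of its group. The part of its signal in these values was not tested. The 5 arrays per group limit the precision.

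At 54 µg more than 1 in 2 of the interferon-stimulated genes rose with NRCWE-043 and with NRCWE-044. At 18 µg 0 members were called with any material. Of 37 members, 3, 2 and 1 were at an unadjusted p under 0.05 there (limma), beside 4889, 2768 and 710 of 25501 features. Against control, 19 of 37 members were higher with NRCWE-043 at 54 µg, where 5.36% of all features were called higher, and 27 of 37 with NRCWE-044, where 3.94% were. With NRCWE-045 at 54 µg Eif2ak2 alone passed, 1 of 37 beside a background of 0.29%. None was lower. The median change of the members was 0.66, 0.87 and 0.46 for the 3 materials in that order, against 0.0079, 0.0051 and 0.0079 over all features. All 37 changes were positive with each material at 54 µg. Calls are at an adjusted p under 0.05 (limma, Benjamini-Hochberg over all features), and the 3 comparisons share their controls.

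These counts moved with the scaling and with single arrays. With each array centred on its median in place of the loess fit, 5, 1 and 0 members were called, and the calls over all features fell too, from 2623, 1528 and 83 to 525, 43 and 0. The share of those calls that were higher went from 52.1, 65.8 and 89.2% to 66.9 and 95.3% for the first 2. The median change of the members was then 0.94, 0.76 and 0.52, against 0.12, -0.0098 and 0.051 over all features. Without control replicates 2 and 29 and replicates 4, 18 and 34 of NRCWE-044, which leaves 3 controls and 2 arrays of that group, 14, 2 and 0 members were called and the medians were 0.69, 0.78 and 0.51. Without all 13 arrays high in heart or adipose markers, an alternative chosen after seeing the data that leaves 3 controls and 2, 2 and 4 arrays at 54 µg, 0, 6 and 0 members were called, beside 210, 162 and 65 features. The medians of the members were then 0.64, 0.78 and 0.43. Leaving out control replicate 7 alone gave 17, 25 and 0. Every member stayed positive in all 28 alternatives with NRCWE-044. With NRCWE-043 Isg20 turned negative in 6 of 28, and with NRCWE-045 Isg20 or Bst2 did so in 4 of 28.

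Averaged over the 37 members, the log2 ratio of an array was 0.38 ± 0.14 (SD, n = 5) in controls, with a range of 0.21 to 0.58. At 54 µg it ran from 0.62 to 1.43 with NRCWE-043, from 1.06 to 1.68 with NRCWE-044 and from 0.54 to 1.12 with NRCWE-045. Every array of the first 2 groups lay above the highest control, and 1 array of the third, replicate 35, lay below it. At 18 µg the ranges were 0.13 to 0.67, -0.047 to 0.64 and 0.32 to 0.97, and all 3 overlapped the controls. The arrays lay on 7 slides. On slides with both 54 µg and control arrays the difference of this mean was 0.30 to 0.87 with NRCWE-043 (2 slides), 0.71 to 1.04 with NRCWE-044 (3 slides) and 0.15 to 0.80 with NRCWE-045 (4 slides). No p is given for these means, since the list was drawn up with results of these arrays known.

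**Figure D2:**
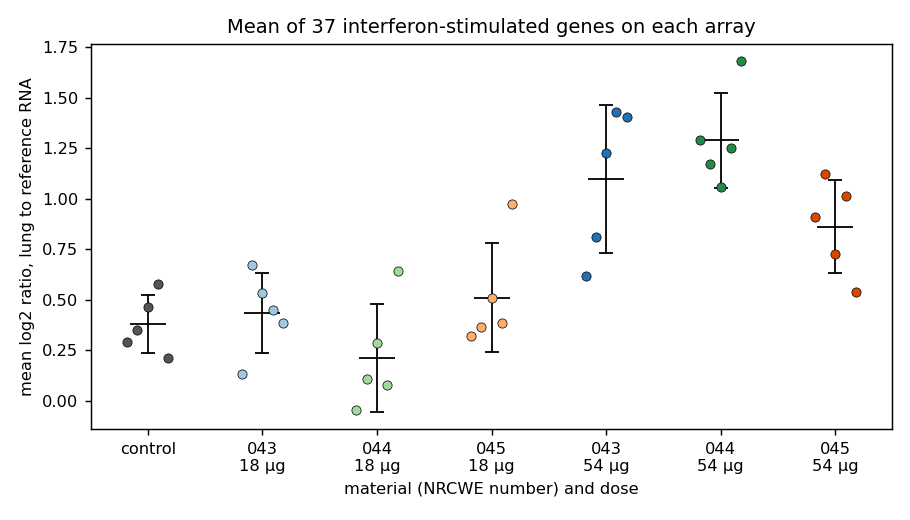
Mean log2 ratio of lung to reference RNA over the 37 tested members (vertical axis) on each of the 35 arrays, by group; each point is 1 array, and bars give the group mean ± SD (n = 5). Arrays of NRCWE-043 and NRCWE-044 at 54 µg all lie above the controls, and at 18 µg replicate 27 of NRCWE-045 lies at 0.97, above the rest of its group.

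In whole lung RNA a higher level can come from more RNA per cell or from more cells of a type, which cannot be told apart. Markers of monocytes and interstitial macrophages moved with the members: 7 of 13 were called higher with NRCWE-043 at 54 µg, 6 of 13 with NRCWE-044 and 0 with NRCWE-045 (3 at an unadjusted p under 0.05). Their mean log2 ratio ran from 1.05 to 1.27 in controls and from 1.52 to 2.21, 1.5 to 2.35 and 1.28 to 1.66 at 54 µg. Neutrophil markers were called higher for 5 of 11 with NRCWE-043, with 1 lower, and for 2 of 11 with NRCWE-044, against 0 of 11 with NRCWE-045 (3 at an unadjusted p under 0.05). Markers of plasmacytoid dendritic cells, a main source of type I interferon in blood, were called higher for 0 of 8 with each material (limma, 1, 0 and 0 higher at an unadjusted p under 0.05), with 1 lower for NRCWE-043, and their mean ran from 0.25 to 0.77 in controls and from 0.34 to 0.73, 0.25 to 0.67 and 0.40 to 0.89 at 54 µg. Alveolar macrophage markers were called higher for 3 of 10 with NRCWE-044 and lower for 4 of 10 with NRCWE-043, and their mean ran from 3.98 to 4.51 in controls, 3.94 to 4.58 with NRCWE-043 and 4.20 to 4.98 with NRCWE-044. Club cell markers were called lower for 4 of 5 with NRCWE-043, 1 of 5 with NRCWE-044 and 0 with NRCWE-045 (limma, 1 at an unadjusted p under 0.05), and their mean ran from 6.09 to 7.04 in controls and 5.35 to 6.09 with NRCWE-043. Of all 25501 features, 1367, 1005 and 74 were called higher at 54 µg with NRCWE-043, NRCWE-044 and NRCWE-045, and 1256, 523 and 9 lower. At an unadjusted p under 0.05 (limma) were 5881, 4990 and 2398 features either way. The part of these cell types in the members' changes was not tested.

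**Figure D3:**
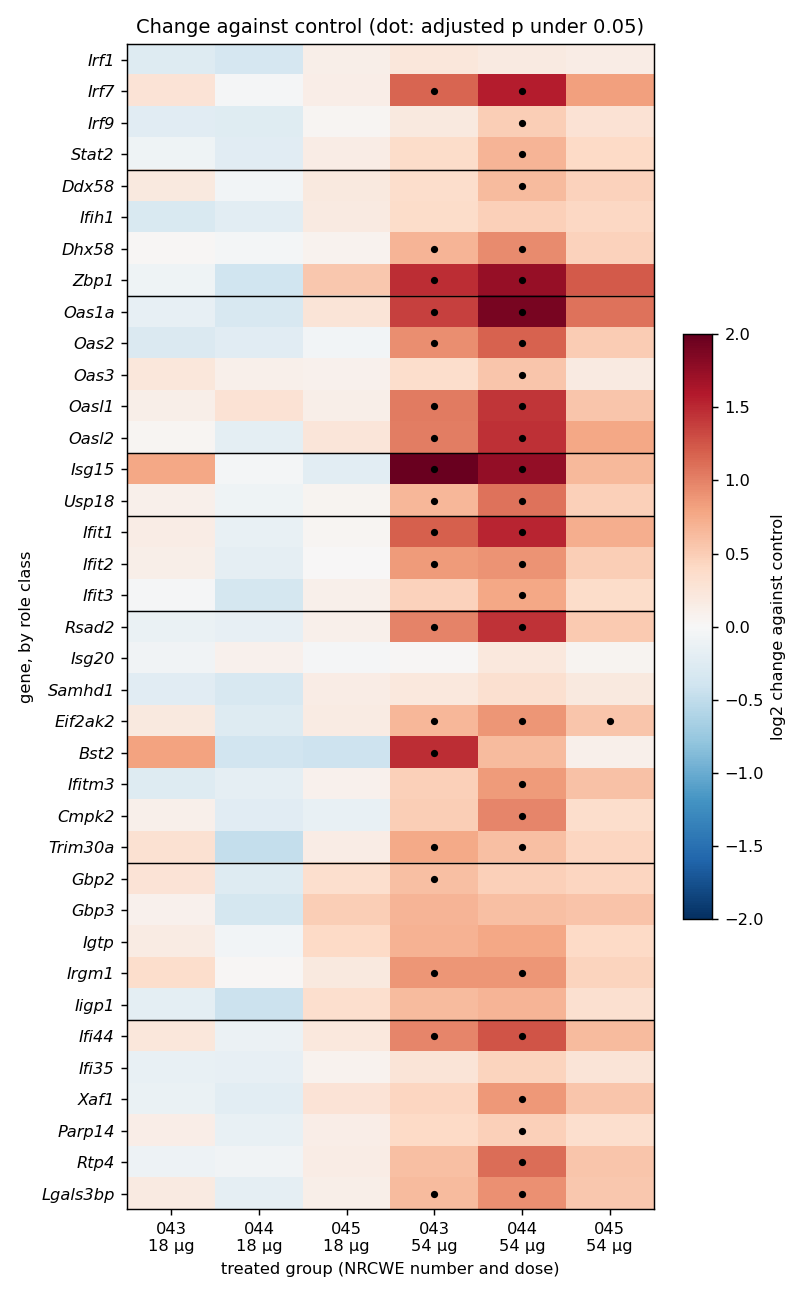
Log2 change against control of each of the 37 tested members (rows, grouped by role) in the 6 treated groups (columns); red is higher and blue lower, and a dot marks an adjusted p under 0.05 (limma). The 54 µg columns are red for almost every gene, with 19, 27 and 1 dots, and the 18 µg columns hold 0 dots.

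Among the 4 signalling factors 1 was called higher with NRCWE-043 at 54 µg, 3 with NRCWE-044 and 0 with NRCWE-045 (limma), and Irf7 changed most with each. IRF7 is the transcription factor that amplifies type I interferon production and is itself induced by it. Its log2 ratio was -1.05, -1.29, -0.97, -1.07 and -1.58 on the control arrays, given here and below in order of sample number. At 54 µg it was -0.91, -0.38, 0.53, 0.39 and 0.20 with NRCWE-043, 0.14, 0.046, 0.10, 0.32 and 1.30 with NRCWE-044, and -0.51, 0.46, -0.80, -0.22 and -0.76 with NRCWE-045. All 15 arrays exposed to 54 µg lay above the highest control, although replicate 3 of NRCWE-043 did so narrowly. At 18 µg the values were -0.88, -0.71, -0.85, -1.15 and -0.96 with NRCWE-043, -1.18, -1.30, -1.22, -1.65 and -0.74 with NRCWE-044, and -1.18, -1.33, -0.64, -1.25 and -0.92 with NRCWE-045, and each of these groups overlapped the controls. Irf7 changed by 1.16 (SE 0.24, adjusted p = 0.0019) with NRCWE-043 and 1.58 (SE 0.24, adjusted p = 0.00014) with NRCWE-044 at 54 µg, a 2.23-fold and a 2.98-fold rise, while the change of 0.83 (SE 0.24, adjusted p = 0.13) with NRCWE-045 missed the threshold.

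Stat2, which encodes the STAT protein particular to type I and type III signalling, was 0.56, 0.67, 0.77, 1.13 and 0.71 in controls. It was 0.78, 0.90, 1.51 and 1.37 on the 4 arrays of NRCWE-043 at 54 µg with a value, 1.49, 1.37, 1.15, 1.60 and 1.60 with NRCWE-044 and 1.37, 1.16, 1.03, 1.43 and 0.85 with NRCWE-045. Only the NRCWE-044 group lay wholly above the controls. After 18 µg it was 0.45, 0.93, 0.77, 0.66 and 0.64 with NRCWE-043, 0.31, 0.32, 0.76, 0.55 and 0.80 with NRCWE-044, and 0.68, 0.98, 0.91, 0.80 and 1.24 with NRCWE-045, all within or across the control range. Stat2 rose by 0.67 (SE 0.14, adjusted p = 0.0036) with NRCWE-044, and the changes of 0.37 and 0.40 with the other materials did not pass (adjusted p = 0.13 and 0.27). The missing array, replicate 16 of NRCWE-043, was left out of that gene's fit. Irf9, which encodes the DNA-binding partner of STAT2, rose with NRCWE-044 by 0.50 (SE 0.14, adjusted p = 0.028) and changed by 0.19 and 0.29 with the others, short of the threshold.

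Irf1, which encodes a factor best known from interferon gamma responses, was not called with any material. It was 1.44, 1.57, 1.72, 1.99 and 1.64 in controls and 1.80, 1.52, 1.94, 2.12 and 2.15 with NRCWE-043, 1.74, 2.01, 1.79, 1.81 and 1.92 with NRCWE-044, and 1.89, 1.85, 1.67, 1.83 and 1.84 with NRCWE-045 at 54 µg. These groups overlapped the controls throughout. At 18 µg the values were 0.64, 0.87, 2.00, 1.76 and 1.80 with NRCWE-043, 0.57, 1.40, 1.61, 1.43 and 1.67 with NRCWE-044, and 1.58, 1.59, 2.03, 1.68 and 2.07 with NRCWE-045, with replicates 5 and 10 of NRCWE-043 and replicate 6 of NRCWE-044 far below the rest. The changes at 54 µg were 0.23, 0.18 and 0.14, with adjusted p = 0.54, 0.69 and 0.92.

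Of the 4 nucleic acid sensors, 2 were called higher with NRCWE-043 at 54 µg and 3 with NRCWE-044. Dhx58 encodes LGP2, a helicase that tunes sensing of viral RNA. Its values were -0.0024, 0.13, -0.13, 0.28 and -0.14 in controls and 0.43, 0.40, 0.86, 1.06 and 0.81 with NRCWE-043, 1.1, 0.60, 0.61, 1.04 and 1.5 with NRCWE-044, and 0.83, 0.52, 0.34, 0.52 and 0.21 with NRCWE-045 at 54 µg. The NRCWE-043 and NRCWE-044 groups lay wholly above the controls, and NRCWE-045 overlapped them through replicate 35. At 18 µg the values were -0.32, 0.27, 0.039, 0.14 and 0.080 with NRCWE-043, -0.33, -0.15, -0.058, -0.25 and 0.73 with NRCWE-044, and 0.044, 0.020, 0.0067, 0.20 and 0.18 with NRCWE-045, where replicate 23 of NRCWE-044 was the highest. The rise was 0.69 (SE 0.17, adjusted p = 0.0079) with NRCWE-043 and 0.95 (SE 0.17, adjusted p = 0.00074) with NRCWE-044, and 0.46 with NRCWE-045 did not pass (adjusted p = 0.29).

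Ifih1, the gene of the RNA sensor MDA5, was 1.51, 1.51, 1.83, 1.82 and 1.56 in controls and 1.84, 1.80, 1.95, 2.34 and 2.11 with NRCWE-043, 2.19, 1.91, 1.92, 2.22 and 2.40 with NRCWE-044, and 2.11, 2.12, 2.05, 2.08 and 1.97 with NRCWE-045 at 54 µg. With NRCWE-044 and NRCWE-045 every array lay above the highest control, yet the changes of 0.48 and 0.42 had adjusted p = 0.07 and 0.32. A second, dimmer probe gave 0.16 and 0.066. The 18 µg arrays read 0.63, 1.09, 1.77, 1.60 and 1.58 with NRCWE-043, 0.86, 1.51, 1.72, 1.60 and 1.5 with NRCWE-044, and 1.68, 1.92, 1.84, 1.66 and 2.06 with NRCWE-045, and replicates 5 and 10 of NRCWE-043 and 6 of NRCWE-044 were low, as for Irf1. Zbp1, which encodes a sensor of Z-form nucleic acid, had the largest changes of this class, 1.48 (SE 0.32, adjusted p = 0.0024), 1.75 (SE 0.32, adjusted p = 0.00088) and 1.22 (SE 0.32, adjusted p = 0.082). Its second probe gave 1.59, 0.72 and 0.29, so the size with NRCWE-044 and NRCWE-045 depends on the probe. Ddx58, the gene of the sensor RIG-I, rose with NRCWE-044 by 0.64 (SE 0.13, adjusted p = 0.0018), and its second probe gave 0.39. Only Zbp1 and Dhx58 of this class were called with NRCWE-043.

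The 2-5A synthetase family makes short oligoadenylates that activate an RNA-cutting enzyme in infected cells. Of its 5 members 4 were called higher with NRCWE-043 at 54 µg and 5 with NRCWE-044, with median changes of 1.03 and 1.43. Oasl2, an interferon-induced relative of the synthetases, was 0.74, 0.69, 0.88, 1.14 and 0.73 in controls. At 54 µg it was 1.43, 1.52, 1.97, 2.08 and 2.34 with NRCWE-043, 2.42, 1.89, 2.00, 2.48 and 2.69 with NRCWE-044, and 1.77, 1.90, 1.30, 2.04 and 1.04 with NRCWE-045. Every array of the first 2 materials exceeded the controls, and with NRCWE-045 replicate 35 fell within their range. In the 18 µg groups it was 0.51, 1.51, 0.75, 0.94 and 0.64 with NRCWE-043, 0.35, 0.23, 0.59, 0.54 and 1.48 with NRCWE-044, and 0.93, 0.72, 1.07, 1.02 and 1.66 with NRCWE-045, with 1 high array each in NRCWE-043 (replicate 10), NRCWE-044 (replicate 23) and NRCWE-045 (replicate 27). Oasl2 rose by 1.03 (SE 0.23, adjusted p = 0.0028) with NRCWE-043 and 1.46 (SE 0.23, adjusted p = 0.00014) with NRCWE-044, and its change with NRCWE-045 was 0.77 (SE 0.23, adjusted p = 0.13). Of all members it followed the mean of the others most closely over the 35 arrays (Pearson r = 0.97, a description of arrays that share groups and slides).

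Oas2 was -1.19, -1.23, -0.82, -0.73 and -1.48 in controls and -0.74, -0.67, 0.18, 0.43 and -0.031 with NRCWE-043, 0.54, -0.10, -0.38, -0.24 and 0.59 with NRCWE-044, and -0.57, -0.39, -0.67, -0.27 and -1.02 with NRCWE-045 at 54 µg. The NRCWE-044 group lay wholly above the controls, while replicate 3 of NRCWE-043 reached only into their upper range. With 18 µg it was -2.32, -1.43, -0.63, -1.21 and -1.34 with NRCWE-043, -1.56, -1.43, -1.32, -1.96 and -0.29 with NRCWE-044, and -1.43, -1.43, -1.23, -1.14 and -0.50 with NRCWE-045, lowest on replicate 5 of NRCWE-043. Its rise was 0.92 (SE 0.28, adjusted p = 0.03) with NRCWE-043 and 1.17 (SE 0.28, adjusted p = 0.0087) with NRCWE-044, against 0.51 with NRCWE-045 (adjusted p = 0.62). The NRCWE-043 call was lost without control replicate 2 or 30, or without replicate 16, 19 or 22 of the group (adjusted p from 0.058 to 0.11). Oas1a changed by 1.37 (SE 0.37, adjusted p = 0.014), 1.89 (SE 0.37, adjusted p = 0.0015) and 1.09 (SE 0.37, adjusted p = 0.22), the largest change of the class with each material. Oasl1, a further relative, rose by 1.04 (SE 0.28, adjusted p = 0.013) and 1.43 (SE 0.28, adjusted p = 0.0013) with the first 2 materials. Oas3 moved least, by 0.36, 0.55 and 0.17, and passed with NRCWE-044 only (adjusted p = 0.0065).

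Isg15, the gene of a ubiquitin-like protein that is joined to other proteins in interferon-treated cells, had the largest change of any member with NRCWE-043. It was -0.77, -0.56, -1.44, -1.01 and -1.37 in controls and 0.022, 0.63, 1.13, 1.58 and 1.40 with NRCWE-043, 0.79, 0.44, 0.15, 0.74 and 1.55 with NRCWE-044, and 0.13, 0.50, -0.67, -0.47 and -1.40 with NRCWE-045 at 54 µg. All 10 arrays of NRCWE-043 and NRCWE-044 lay above the highest control, and with NRCWE-045 the values spread from below the control mean to well above the highest control. Arrays of the 18 µg groups gave -0.24, 0.91, -0.64, -0.55 and -0.76 with NRCWE-043, -1.23, -1.07, -1.48, -1.78 and 0.23 with NRCWE-044, and -0.94, -1.42, -1.42, -1.45 and -1.01 with NRCWE-045. Replicate 10 of NRCWE-043 and replicate 23 of NRCWE-044 stood above the other arrays of their groups. The rise at 54 µg was 1.98 (SE 0.35, adjusted p = 0.00033) with NRCWE-043, or 3.95-fold, and 1.76 (SE 0.35, adjusted p = 0.0019) with NRCWE-044, or 3.39-fold, while 0.65 (SE 0.35, adjusted p = 0.61) with NRCWE-045 did not pass. A second probe of Isg15 gave 1.53, 1.38 and 0.43. Control replicate 7, which stands with the NRCWE-043 arrays on other features, was the highest control for Isg15.

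Usp18, which encodes the protease that removes ISG15 from its targets and restrains the type I receptor, was -0.71, -0.96, -0.59, -0.59 and -0.93 in controls. At 54 µg it was -0.89, -0.57, 0.39, 0.50 and 0.10 with NRCWE-043, 0.41, 0.35, -0.038, 0.33 and 0.63 with NRCWE-044, and -0.12, 0.17, -0.40, -0.23 and -0.81 with NRCWE-045. NRCWE-044 lay wholly above the controls, and replicate 3 of NRCWE-043 and replicate 35 of NRCWE-045 lay among them. At 18 µg it was -0.59, -0.18, -0.62, -0.99 and -0.91 with NRCWE-043, -0.96, -0.71, -0.71, -1.12 and -0.69 with NRCWE-044, and -0.86, -0.75, -0.66, -0.94 and -0.33 with NRCWE-045, overlapping the controls in every group. Usp18 changed by 0.66 (SE 0.20, adjusted p = 0.03), 1.09 (SE 0.20, adjusted p = 0.00096) and 0.48 (SE 0.20, adjusted p = 0.4). The NRCWE-043 call was lost without control replicate 2, 7 or 30, or without replicate 16, 19 or 22 of the group (adjusted p from 0.051 to 0.13).

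The IFIT proteins bind viral RNA that lacks host marks. Of the 3 genes, 2 were called higher with NRCWE-043 at 54 µg and all 3 with NRCWE-044. Ifit1 was -0.25, -0.55, -0.22, -0.20 and -0.14 in controls and 0.28, 0.49, 1.04, 1.37 and 1.45 with NRCWE-043, 1.32, 1.00, 0.64, 1.35 and 1.92 with NRCWE-044, and 0.91, 0.76, 0.37, 0.64 and -0.41 with NRCWE-045 at 54 µg. Both first materials lay wholly above the controls, whereas NRCWE-045 had 4 arrays above and replicate 35 within their range. The 18 µg arrays read -0.030, 0.58, -0.30, -0.34 and -0.52 with NRCWE-043, -0.43, -0.21, -0.41, -0.80 and -0.25 with NRCWE-044, and -0.11, -0.30, -0.26, -0.49 and -0.015 with NRCWE-045, with replicate 10 of NRCWE-043 the highest. Ifit1 rose by 1.20 (SE 0.23, adjusted p = 0.00089) with NRCWE-043 and 1.52 (SE 0.23, adjusted p = 0.00014) with NRCWE-044, and its change with NRCWE-045 was 0.73 (SE 0.23, adjusted p = 0.18). Without replicate 35 that last comparison passed (adjusted p = 0.042).

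Ifit3, whose protein partners IFIT1, was 1.86, 2.14, 2.40, 2.54 and 2.08 in controls and 2.11, 2.38, 2.78, 2.94 and 3.09 with NRCWE-043, 2.86, 2.88, 2.68, 3.13 and 3.35 with NRCWE-044, and 2.52, 2.76, 2.59, 2.81 and 2.15 with NRCWE-045 at 54 µg. NRCWE-044 alone lay wholly above the controls. In the 18 µg groups it was 2.13, 2.54, 2.08, 2.21 and 1.91 with NRCWE-043, 1.59, 1.66, 2.15, 2.05 and 1.84 with NRCWE-044, and 2.14, 2.13, 2.15, 2.30 and 2.82 with NRCWE-045, where replicate 27 of NRCWE-045 stood above its group. The change was 0.78 (SE 0.17, adjusted p = 0.0051) with NRCWE-044, against 0.46 with NRCWE-043 (adjusted p = 0.091) and 0.36 with NRCWE-045 (adjusted p = 0.51). Ifit2 rose by 0.84 (SE 0.19, adjusted p = 0.0043) with NRCWE-043 and 0.91 (SE 0.19, adjusted p = 0.0036) with NRCWE-044.

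**Figure D4:**
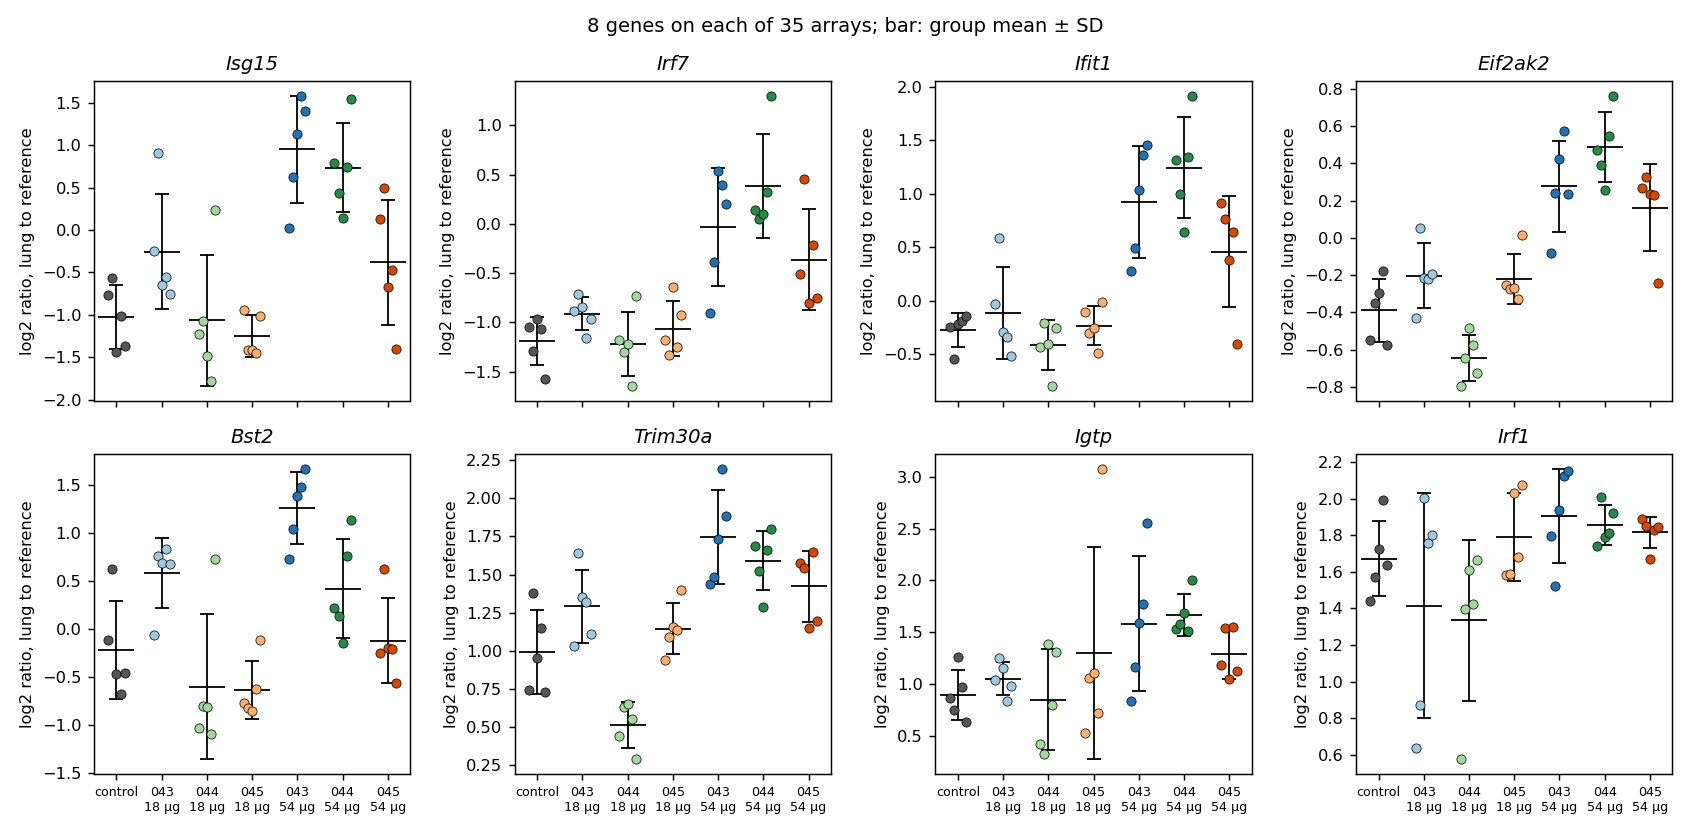
Log2 ratio of lung to reference RNA (vertical axis, own scale per panel) of 8 members on each of 35 arrays, by group; points are arrays and bars the group mean ± SD (n = 5 arrays). Irf7, Isg15, Ifit1 and Eif2ak2 are high at 54 µg of NRCWE-043 and NRCWE-044, Bst2 is high with NRCWE-043 at both doses, Trim30a is low with NRCWE-044 at 18 µg, 1 array of NRCWE-045 at 18 µg reaches 3.08 for Igtp, and Irf1 overlaps the controls.

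Antiviral effectors were split. Of 8 tested, 4 were called higher with NRCWE-043 at 54 µg, 5 with NRCWE-044 and 1 with NRCWE-045. Eif2ak2, the gene of the kinase PKR that stops translation on double-stranded RNA, was the only member called with all 3 materials. Its values were -0.55, -0.35, -0.30, -0.18 and -0.57 in controls and -0.080, 0.24, 0.42, 0.57 and 0.23 with NRCWE-043, 0.47, 0.39, 0.26, 0.55 and 0.76 with NRCWE-044, and 0.27, 0.33, 0.23, 0.23 and -0.24 with NRCWE-045 at 54 µg. All arrays but replicate 35 of NRCWE-045 lay above the highest control. With 18 µg it was -0.43, 0.052, -0.22, -0.22 and -0.19 with NRCWE-043, -0.80, -0.65, -0.48, -0.58 and -0.73 with NRCWE-044, and -0.26, -0.28, -0.27, -0.33 and 0.014 with NRCWE-045, highest with replicate 10 of NRCWE-043 and low on all 5 arrays of NRCWE-044. The rise was 0.67 (SE 0.12, adjusted p = 0.00031), 0.88 (SE 0.12, adjusted p = 3.3e-05) and 0.55 (SE 0.12, adjusted p = 0.033). With NRCWE-045 the call was lost when control replicate 2, 7, 15 or 30, or replicate 8, 14, 28 or 32 of the group, was left out, with adjusted p from 0.055 to 0.15.

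Isg20, an interferon-induced exonuclease gene, did not pass with any material. It was 0.49, 0.29, 0.48, 0.77 and 0.94 in controls and 0.45, 0.54, 0.57, 0.96 and 0.56 with NRCWE-043, 0.69, 0.65, 0.84, 1.13 and 0.75 with NRCWE-044, and 0.28, 0.79, 0.71, 0.78 and 0.67 with NRCWE-045 at 54 µg, so every group overlapped the controls. Arrays of the 18 µg groups gave 0.46, 0.73, 0.61, 0.61 and 0.21 with NRCWE-043, 0.40, 0.60, 0.80, 0.69 and 0.90 with NRCWE-044, and 0.44, 0.27, 0.67, 0.48 and 0.98 with NRCWE-045. The changes at 54 µg were 0.023, 0.22 and 0.049 (adjusted p = 0.95, 0.42 and 0.97). Samhd1, whose enzyme lowers the nucleotide supply for reverse transcription, changed by 0.21, 0.32 and 0.20 and did not pass either.

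Bst2 encodes tetherin, which holds budding virus at the cell surface, and in the main fit it was the member called between materials at both doses. It was -0.12, 0.62, -0.47, -0.68 and -0.46 in controls, the highest being replicate 7. At 54 µg it was 0.72, 1.04, 1.39, 1.48 and 1.67 with NRCWE-043, 0.21, 0.13, -0.15, 0.75 and 1.14 with NRCWE-044, and -0.25, 0.62, -0.20, -0.21 and -0.57 with NRCWE-045. After 18 µg it was -0.059, 0.76, 0.69, 0.83 and 0.68 with NRCWE-043, -1.04, -0.80, -0.81, -1.09 and 0.73 with NRCWE-044, and -0.77, -0.82, -0.85, -0.63 and -0.11 with NRCWE-045. The NRCWE-043 arrays at 54 µg lay wholly above the controls, and at 18 µg 4 of 5 exceeded every control. Bst2 rose by 1.48 (SE 0.29, adjusted p = 0.00089) with NRCWE-043 at 54 µg, and its changes of 0.64 and 0.10 with NRCWE-044 and NRCWE-045 did not pass.

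Rsad2, the gene of the antiviral enzyme viperin, rose by 0.99 (SE 0.29, adjusted p = 0.024) with NRCWE-043 and 1.45 (SE 0.29, adjusted p = 0.002) with NRCWE-044. Trim30a, a mouse member of the tripartite motif family, was 0.74, 1.38, 0.95, 1.15 and 0.73 in controls and 1.43, 1.48, 1.73, 2.19 and 1.89 with NRCWE-043, 1.69, 1.52, 1.29, 1.66 and 1.80 with NRCWE-044, and 1.57, 1.54, 1.15, 1.65 and 1.19 with NRCWE-045 at 54 µg. Only the NRCWE-043 group lay wholly above the controls, of which replicate 7 was the highest. It rose by 0.76 (SE 0.14, adjusted p = 0.00063) and 0.60 (SE 0.14, adjusted p = 0.0082) with NRCWE-043 and NRCWE-044, while Ifitm3, whose protein blocks virus entry, and Cmpk2, which encodes a mitochondrial nucleotide kinase, were called with NRCWE-044, at 0.86 and 0.97 (adjusted p = 0.0025 and 0.0028), and not with NRCWE-043, at 0.48 and 0.50.

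The interferon-induced GTPases, which attack the vacuoles of intracellular microbes and respond strongly to interferon gamma, gave 2 calls of 5 with NRCWE-043 at 54 µg, 1 with NRCWE-044 and 0 with NRCWE-045 (limma). Irgm1 was 0.34, 0.39, 0.47, 0.45 and 0.091 in controls and 0.84, 0.97, 1.11, 1.37 and 1.83 with NRCWE-043, 1.17, 1.13, 1.14, 1.05 and 1.64 with NRCWE-044, and 0.75, 0.94, 0.62, 1.05 and 0.57 with NRCWE-045 at 54 µg. All 15 of these arrays lay above the highest control. At 18 µg it was 0.51, 0.96, 0.61, 0.65 and 0.77 with NRCWE-043, 0.11, 0.073, 0.44, 0.37 and 0.86 with NRCWE-044, and 0.027, 0.53, 0.42, 0.29 and 1.45 with NRCWE-045, and the NRCWE-043 group lay above the controls by a small margin. Irgm1 rose by 0.88 (SE 0.19, adjusted p = 0.0025) and 0.88 (SE 0.19, adjusted p = 0.0039), and its change of 0.44 (SE 0.19, adjusted p = 0.42) with NRCWE-045 did not pass. Gbp2, a guanylate-binding protein gene, rose with NRCWE-043 by 0.59 (SE 0.19, adjusted p = 0.039), and its relative Gbp3 changed by 0.69, 0.60 and 0.58 without passing.

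Igtp was 0.86, 0.75, 1.26, 0.97 and 0.63 in controls and 0.83, 1.17, 1.59, 1.77 and 2.55 with NRCWE-043, 1.53, 1.58, 1.69, 1.51 and 2.01 with NRCWE-044, and 1.18, 1.54, 1.05, 1.55 and 1.13 with NRCWE-045 at 54 µg. The NRCWE-044 group lay wholly above the controls. In the 18 µg groups it was 1.03, 1.25, 1.15, 0.83 and 0.98 with NRCWE-043, 0.42, 0.32, 1.39, 0.79 and 1.31 with NRCWE-044, and 0.53, 1.06, 1.1, 0.72 and 3.08 with NRCWE-045, and replicate 27 of NRCWE-045 was the highest of all 35 arrays. The changes at 54 µg of 0.69, 0.77 and 0.39 did not pass (adjusted p = 0.17, 0.15 and 0.8). Iigp1 was 1.60, 1.63, 1.74, 1.67 and 1.1 in controls and 2.11, 1.87, 1.69, 2.21 and 3.06 with NRCWE-043, 2.44, 2.37, 1.76, 1.71 and 2.86 with NRCWE-044, and 1.89, 1.98, 1.77, 2.01 and 1.70 with NRCWE-045 at 54 µg. With 18 µg it was 0.64, 1.62, 1.40, 1.60 and 1.51 with NRCWE-043, 0.63, 0.84, 1.64, 1.23 and 1.24 with NRCWE-044, and 1.60, 1.44, 1.59, 1.55 and 3.27 with NRCWE-045, again highest on replicate 27. Each group overlapped the controls, and the changes of 0.64, 0.68 and 0.32 at 54 µg had adjusted p = 0.15, 0.16 and 0.83. The fit pools the spread over the 7 groups, with an SE of 0.31 for Igtp. Fitted on NRCWE-044 at 54 µg and the controls alone, Igtp was called (limma, adjusted p = 0.0061), which held in only 1 of 28 alternatives. That fit leaves out every other group, and the part of replicate 27 was not tested.

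Of the 6 remaining members 2 were called higher with NRCWE-043 at 54 µg and 5 with NRCWE-044. Ifi44 was -1.29, -1.34, -1.15, -1.03 and -2.04 in controls and -1.03, -0.64, -0.17, 0.14 and -0.26 with NRCWE-043, -0.26, -0.39, -0.21, -0.23 and 0.54 with NRCWE-044, and -0.51, -0.25, -0.89, -0.68 and -1.32 with NRCWE-045 at 54 µg. NRCWE-044 lay wholly above the controls, and replicate 3 of NRCWE-043 lay at their upper end. Arrays of the 18 µg groups gave -1.09, -1.11, -0.96, -1.21 and -1.37 with NRCWE-043, -1.26, -1.55, -1.26 and -1.88 on the 4 arrays of NRCWE-044 with a value, and -1.39, -1.46, -1.08, -1.27 and -0.61 with NRCWE-045. Replicate 23 of NRCWE-044 lacked a value and was left out of this gene's fit. Ifi44 rose by 0.98 (SE 0.21, adjusted p = 0.003) and 1.26 (SE 0.21, adjusted p = 0.00043), against 0.64 (SE 0.21, adjusted p = 0.21) with NRCWE-045.

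Ifi35 was 1.15, 1.01, 1.46, 1.12 and 1.08 in controls and 1.39, 1.16, 1.53, 1.56 and 1.46 with NRCWE-043, 1.61, 1.48, 1.63, 1.31 and 2.03 with NRCWE-044, and 1.26, 1.72, 1.22, 1.24 and 1.70 with NRCWE-045 at 54 µg, overlapping the controls in each group. After 18 µg it was 0.47, 0.81, 1.14, 1.07 and 1.58 with NRCWE-043, 0.58, 0.87, 1.22, 1.16 and 1.16 with NRCWE-044, and 1.08, 1.34, 1.15, 1.37 and 1.26 with NRCWE-045, with low values on replicate 5 of NRCWE-043 and replicate 6 of NRCWE-044. It changed by 0.26, 0.45 and 0.26 at 54 µg and was not called (adjusted p = 0.34, 0.083 and 0.66). Lgals3bp, which encodes a secreted galectin-binding glycoprotein, rose by 0.64 (SE 0.17, adjusted p = 0.015) with NRCWE-043 and 0.91 (SE 0.17, adjusted p = 0.0013) with NRCWE-044. Rtp4, the gene of a receptor chaperone, Xaf1, which encodes a partner of an apoptosis inhibitor, and Parp14, which encodes an ADP-ribosyltransferase, were called with NRCWE-044 and not with NRCWE-043. Their changes with NRCWE-044 were 1.11, 0.87 and 0.47 (adjusted p = 0.0013, 0.0067 and 0.032). The second probe of Xaf1 gave 0.22 in that comparison.

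At 18 µg 0 of 37 members passed with NRCWE-043 (limma, 3 at an unadjusted p under 0.05; Bst2 passed without control replicate 7), where 4.22% of features were called either way. The counts were also 0 with NRCWE-044 (2 unadjusted) and NRCWE-045 (1 unadjusted), where 0% and 0% of features were called. At that unadjusted p were 4889, 2768 and 710 of 25501 features with NRCWE-043, NRCWE-044 and NRCWE-045. Without an adjusted call, 33 of 37 members were below control with NRCWE-044 (median -0.18, all features -0.026), whereas 32 of 37 were above it with NRCWE-045 (median 0.13) and 21 of 37 with NRCWE-043 (median 0.082). With median centring NRCWE-045 had 20 of 37 above control, with a median of 0.0020, so its lean upward depends on the scaling. For NRCWE-044 the number above control stayed between 2 and 9 of 37 over the alternatives.

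T and NK cell markers leaned low in the same NRCWE-044 group, with a mean from 0.51 to 0.89, against 0.70 to 1.62 in controls. The mean of B cell markers ran from -0.19 to 0.28, against -0.083 to 1.51 in controls. The high B cell values were on control replicates 7 and 29 (1.51 and 1.27), while control replicates 2, 15 and 30 gave -0.083, 0.25 and 0.24. Of these markers 0 of 11 and 0 of 7 were called against control (limma, 5 and 2 at an unadjusted p under 0.05). At that unadjusted p were 2768 of 25501 features. Between 54 and 18 µg of this material 2 of 11 and 1 of 7 were called higher, as were 7 of 13 monocyte and interstitial macrophage markers, beside 4.84% of all features. Their part in the members' values was not tested. Trim30a on the NRCWE-044 arrays, at 0.44, 0.63, 0.65, 0.55 and 0.29, lay wholly below the controls, with a change of -0.48 (SE 0.14, adjusted p = 0.29). For the 12 members with 2 tested probes, both probes had the same sign for 12, 12 and 11 at 54 µg but only for 5, 9 and 9 at 18 µg. The 18 µg exceptions were Cmpk2, Ddx58, Ifih1, Iigp1, Isg20, Oas1a and Zbp1 with NRCWE-043, Irgm1, Isg15 and Zbp1 with NRCWE-044, and Cmpk2, Ddx58 and Ifih1 with NRCWE-045, and the 54 µg exception was Isg20 with NRCWE-045.

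The comparison of 54 with 18 µg asks whether the response grew with dose, and it uses no control array. With NRCWE-044 34 of 37 members were higher at 54 µg, beside 4.84% of all features, with a median of 1.08. The exceptions were Igtp (0.82, SE 0.31, adjusted p = 0.11), Irf1 (0.52, SE 0.20, adjusted p = 0.12) and Isg20 (0.13, SE 0.14, adjusted p = 0.65). The largest steps were 2.21 (SE 0.37, adjusted p = 0.00025) for Oas1a, 2.15 (SE 0.32, adjusted p = 6.4e-05) for Zbp1 and 1.80 (SE 0.35, adjusted p = 0.0014) for Isg15. Against control the Zbp1 probe used changed by -0.41 at 18 µg and 1.75 at 54 µg. Its second probe changed by 0.10 and 0.72, a much smaller step, so the size for Zbp1 depends on the probe. For 29 of 37 genes every array at 54 µg lay above every array at 18 µg, which held for 3.69% of features. Median centring gave 4 calls, 10 members were called without replicates 4, 18 and 34, and 9 without all arrays high in heart or adipose markers. On the 3 slides with both doses the mean difference over members was 0.70 to 1.34.

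With NRCWE-043 10 of 37 were higher at 54 than at 18 µg, beside 0.925% of features. They were Zbp1 (1.56, SE 0.32, adjusted p = 0.013), Oas1a (1.54), Oas2 (1.22), Rsad2 (1.12), Ifit1 (1.04), Oasl2 (1.00), Ifitm3 (0.73), Ifih1 (0.67), Dhx58 (0.67) and Eif2ak2 (0.48), all with adjusted p between 0.013 and 0.048. That count rests on single arrays, being 0 without replicate 5 at 18 µg or replicate 19 at 54 µg, 1 (Zbp1) without replicate 16 or 22 at 54 µg and 16 without replicate 3. Second probes gave smaller steps for Ifih1, Oas1a and Zbp1. Against control at 18 and 54 µg, Ifih1 changed by -0.31 and 0.36 on the probe used, and by 0.098 and 0.25 on the second. Oas1a changed by -0.17 and 1.37, and by 0.34 and 1.06 on the second. Zbp1 changed by -0.084 and 1.48, and by 0.55 and 1.59 on the second. With NRCWE-045 0 of 37 passed, beside 0% of features. At an unadjusted p under 0.05 (limma) were 13 members and 971 of 25501 features. The median step was 0.38 with 35 of 37 positive. Igtp and Iigp1 were the 2 negative ones, at -0.0083 and -0.018, and replicate 27 lies in the 18 µg group.

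The dose steps themselves were compared between materials. All 37 members had a larger step with NRCWE-044 than with NRCWE-043 (median difference 0.41, or 0.17 with median centring), and all 37 a smaller one with NRCWE-045 than with NRCWE-044 (median difference -0.71). After adjustment 0 of 37 passed in either comparison, and the features called over the whole array were 0% and 0%. At an unadjusted p under 0.05 (limma) were 10 and 29 members, beside 819 and 1142 of 25501 features. NRCWE-045 against NRCWE-043 also gave 0, and 0% of features. There 1 member and 917 of 25501 features were at that unadjusted p. All 37 differences between NRCWE-044 and NRCWE-043 were positive in 18 of 37 alternatives, and at least 32 were in the others. They draw on both doses. Members lay lower with NRCWE-044 than with NRCWE-043 at 18 µg (median -0.23) and higher at 54 µg (median 0.26, 31 of 37 positive). With median centring the median at 54 µg was -0.098, with 11 of 37 positive. The 3 comparisons of dose steps share groups.

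**Figure D5:**
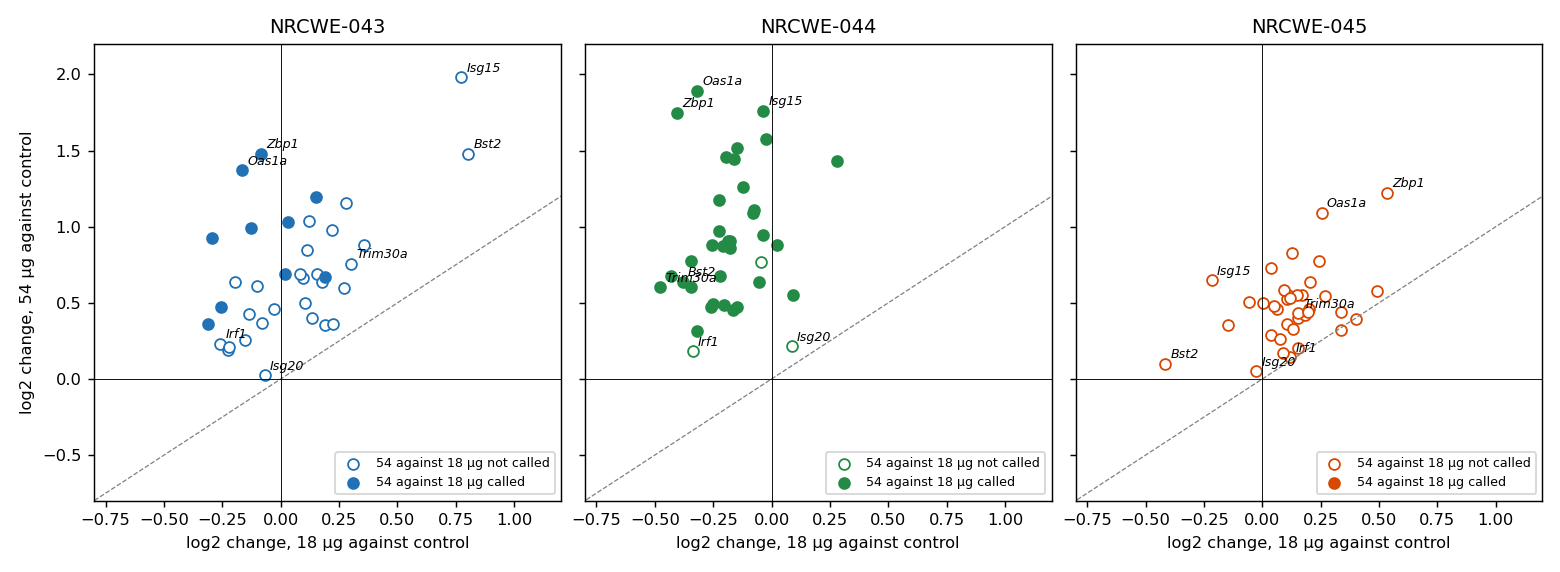
Log2 change against control at 54 µg (vertical axis) against that at 18 µg (horizontal axis) for each of the 37 members, 1 panel per material; filled points were called between 54 and 18 µg (limma adjusted p under 0.05) and the dashed line marks equal change. Nearly all points lie above the line, 34 are filled for NRCWE-044, 10 for NRCWE-043 and 0 for NRCWE-045, and both axes use the same controls.

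Materials were also compared with each other at the same dose. At 18 µg 3 of 37 members were lower with NRCWE-044 than with NRCWE-043, beside 5.47% of features: Trim30a (-0.78, SE 0.14, adjusted p = 0.00034), Bst2 (-1.18, SE 0.29, adjusted p = 0.0063) and Eif2ak2 (-0.44, SE 0.12, adjusted p = 0.012). Without replicate 23 of NRCWE-044 Isg15 and Lgals3bp joined them, 5 in all. Trim30a was 1.03, 1.64, 1.35, 1.32 and 1.11 with NRCWE-043 and 0.94, 1.09, 1.16, 1.13 and 1.40 with NRCWE-045, and all of these lay above the NRCWE-044 values given above. Trim30a was also higher with NRCWE-045 than with NRCWE-044, the 1 call of that comparison, beside 0.365% of features, by 0.63 (SE 0.14, adjusted p = 0.036). It was lost in 6 of the 10 fits that left out 1 array of either group (NRCWE-044 replicate 6 or 23, or NRCWE-045 replicate 12, 13, 25 or 27). Against NRCWE-043 at 18 µg, NRCWE-045 had 1 member higher, Ifih1 by 0.49 (SE 0.16, adjusted p = 0.049), beside 6.03% of features, and 1 lower, Bst2 (-1.22, SE 0.29, adjusted p = 0.0054), beside 2.54%. The Ifih1 groups overlap, with replicates 5 and 10 of NRCWE-043 far below the rest, and the call was lost without either of them or without any 1 array of NRCWE-045. Against control at 18 µg the Ifih1 probe used changed by -0.31 with NRCWE-043 and 0.18 with NRCWE-045. A second, dimmer probe of Ifih1 changed by 0.098 and -0.032, in the opposite order, so the direction depends on the probe. For Bst2 the groups do not overlap.

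At 54 µg 2 of 37 members were lower with NRCWE-045 than with NRCWE-043, beside 1.51% of features: Bst2 (-1.38, SE 0.29, adjusted p = 0.0022), with groups that did not overlap, and Isg15 (-1.33, SE 0.35, adjusted p = 0.017), with groups that did. The Isg15 call was lost without replicate 19 or 22 of NRCWE-043 or replicate 35 of NRCWE-045. NRCWE-044 and NRCWE-043 differed for 0 of 37, although 7.65% of all features were called either way. At an unadjusted p under 0.05 (limma) were 8 members and 4663 of 25501 features. NRCWE-045 and NRCWE-044 differed for 0 of 37 and 0% of features. All 37 members were lower with NRCWE-045 (median -0.38, at least 30 in each alternative). At an unadjusted p under 0.05 (limma) 19 were so, beside 1538 of 25501 features either way. The members move together over the arrays, so their signs are not separate observations. On the 4 slides with both groups the mean difference over members was -1.14 to -0.052. Bst2 is the member that separated NRCWE-043 from both other materials at 18 µg and from NRCWE-045 at 54 µg, and at 54 µg its difference between NRCWE-044 and NRCWE-043 was -0.84 (SE 0.29, adjusted p = 0.071).

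The rest of the interferon pathway was read from a further list of 84 genes, of which 74 were tested. At 54 µg 21, 20 and 2 of them were higher for NRCWE-043, NRCWE-044 and NRCWE-045, with 0 lower, and at 18 µg 0 were called (12, 5 and 2 at an unadjusted p under 0.05). Over all features 5.36, 3.94 and 0.29% were called higher at 54 µg. At 18 µg 4889, 2768 and 710 of 25501 features were at an unadjusted p under 0.05 (limma). Ligand genes gave 0 calls of 8 at 54 µg with each material and 0 at an unadjusted p under 0.05. Ifng, the gene of interferon gamma, changed by 0.39, 0.068 and 0.22, and Ifna5 by -0.056, -0.12 and -0.12, while Ifnb1, Ifna4, Ifnl2 and Ifne were not tested. Of 6 receptor chains 2 rose with NRCWE-043 and with NRCWE-044: Ifnar2, a chain of the type I receptor, by 0.47 (SE 0.10, adjusted p = 0.0026) and 0.35 (SE 0.10, adjusted p = 0.034), and Ifngr2, of the interferon gamma receptor, by 0.38 (SE 0.12, adjusted p = 0.031) and 0.39 (SE 0.12, adjusted p = 0.044).

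Genes of sensing and induction gave 4, 5 and 1 calls of 14. Myd88, the adaptor of Toll-like receptors, rose with every material, by 0.41 (SE 0.091, adjusted p = 0.0029), 0.59 (SE 0.091, adjusted p = 0.00014) and 0.42 (SE 0.091, adjusted p = 0.038). Tmem173, the gene of the DNA-sensing adaptor STING, rose by 0.83 (SE 0.22, adjusted p = 0.014) and 0.97 (SE 0.22, adjusted p = 0.0066) and changed by 0.78 with NRCWE-045. Among 7 negative regulators 3 rose with each of NRCWE-043 and NRCWE-044, led by Socs1, by 1.21 (SE 0.18, adjusted p = 7.1e-05) and 1.18 (SE 0.18, adjusted p = 0.00015), and Socs3, by 0.77 (SE 0.17, adjusted p = 0.0039) and 0.71 (SE 0.17, adjusted p = 0.011). Both encode feedback inhibitors of cytokine signalling. Of 35 further interferon-induced genes 12, 10 and 1 rose. Cxcl10, a chemokine that attracts activated T cells, rose by 3.18 (SE 0.47, adjusted p = 5.1e-05), 3.25 (SE 0.47, adjusted p = 6.2e-05) and 2.14 (SE 0.47, adjusted p = 0.038), and Ifi204, a DNA-binding protein gene, by 1.14 (SE 0.22, adjusted p = 0.00064) and 1.38 (SE 0.22, adjusted p = 0.00015) with the first 2 materials.

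Outside the list, the 5 genes whose log2 ratio over the 35 arrays was most like the mean of the members were Phf11d (Pearson r = 0.97), Ifi211 (0.95), Cfb (0.93), Cxcl10 (0.93) and Fcgr1 (0.92). These are descriptions over arrays that share groups, slides and tissue makeup. At 54 µg Ifi211 changed by 1.37, 1.87 and 1.00, and Cfb, which encodes complement factor B, by 1.19, 1.58 and 1.02. Fcgr1 is also 1 of the monocyte and macrophage markers. Within the list the likeness to the mean of the other members ran from 0.97 for Oasl2 down to 0.41 for Isg20, with Oas3 (0.51), Irf1 (0.59) and Bst2 (0.63) also at the low end.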

How the data were processed

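Lung RNA from 35 samples was measured on 2-colour arrays, each against a common reference. Scanner intensities, as deposited by the authors, were extracted with Feature Extraction 11.0.1.1, per the file headers. The authors' deposited series table holds log2 ratios of Cy5 to Cy3, and the way they were normalized was not given in the sources used here; they correlated at 0.994 to 1.00 with the ratios used here. The authors' intensities were background-corrected (normexp, offset 50) and loess-normalized within arrays with limma 3.58.1 in R 4.3.3. Control spots (3671) and outlier-flagged spots were left out. A probe was kept if well above background in Cy5 on 3 of 5 arrays of 1 group, and the brightest probe stood for a gene. One limma model of the 7 groups on 35 arrays gave changes, SE and p-values, adjusted over 25501 features in each of 18 comparisons, and called under 0.05. The procedure was tested on simulated data.

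Symbols came from RefSeq accessions (27235 of 55681 probes matched). The members, pathway genes, markers and comparisons were chosen with earlier results of these data known. Genes given on every array are, in each role class, those with the largest and smallest moderated statistic over the 6 control comparisons, plus Isg15, Irf7, Ifit1, Stat2, Irf1 and Igtp; also named are members called between doses or materials, untested ones and ones whose probes disagree, and up to 2 genes per pathway list, of which 1 list is not reported here. Bst2 and Trim30a are given on every array because they were called between materials, after their values were seen. Alternatives changed the values used, background, normalization, filter, probe summary, slide, arrays, variance model and fold threshold, and left out each array; 1, without all arrays high in heart or adipose markers, was added after seeing the data.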

Additional observations from a re-analysis of the deposited data

Results flagged for a closer look

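Among 133 sets of values (18 genes and the mean over members, each in 7 groups) 18 had a highest or lowest array far from the rest by Dixon's test, where chance gives about 1 in 20. Replicate 27 of NRCWE-045 at 18 µg was the highest for Igtp (3.08, the others 0.53 to 1.1), Iigp1 (3.27, the others 1.44 to 1.60), Ifit3 (2.82) and Eif2ak2 (0.014). Replicate 34 of NRCWE-044 at 54 µg was the highest for Irf7 (1.30), Irgm1 (1.64) and Ifi44 (0.54). Replicate 23 of NRCWE-044 at 18 µg was the highest for Dhx58 (0.73) and Oasl2 (1.48), and replicate 6 of that group the lowest for Irf1 (0.57) and Ifih1 (0.86).

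In the other groups, the low arrays were control replicate 7 for Ifit1 (-0.55), control replicate 30 for Iigp1 (1.1), replicate 5 of NRCWE-043 at 18 µg for Iigp1 (0.64), and replicates 28, 8 and 35 of NRCWE-045 at 54 µg for Irf1 (1.67), Isg20 (0.28) and Eif2ak2 (-0.24). Replicate 19 of NRCWE-043 at 54 µg was the highest for Isg20 (0.96).

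Tests of the difference between materials at the same dose (limma, adjusted over all features) passed for 8 member results. At 18 µg NRCWE-044 was below NRCWE-043 for Eif2ak2 (-0.44), Bst2 (-1.18) and Trim30a (-0.78). NRCWE-045 at 18 µg was above NRCWE-043 for Ifih1 (0.49, with a second probe going the other way), below it for Bst2 (-1.22) and above NRCWE-044 for Trim30a (0.63). At 54 µg NRCWE-045 was below NRCWE-043 for Isg15 (-1.33) and Bst2 (-1.38).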

How the results depend on the processing

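Main counts of members called at 54 µg were 19, 27 and 1 against control and 10, 34 and 0 between doses, for NRCWE-043, NRCWE-044 and NRCWE-045. Median centring gave 5, 1 and 0 against control, 0 and 4 for the first 2 dose steps, 0 for each of the 3 comparisons of materials at 18 µg and 1 for NRCWE-045 against NRCWE-043 at 54 µg; it moved the median change over all features as far as 0.14 for the NRCWE-043 dose step and -0.18 for NRCWE-044 against NRCWE-043 at 54 µg. Without arrays rich in heart or adipose markers 2, 0 and 10 were called for NRCWE-044 and NRCWE-045 against control and the NRCWE-044 dose step. Without all arrays high in these markers, added after seeing the data, the counts against control were 0, 6 and 0, those of the first 2 dose steps 0 and 9, and those of NRCWE-045 against NRCWE-044 at 18 µg and against NRCWE-043 at 54 µg both 0. The NRCWE-043 dose step gave 1 with Agilent processed signals, 17 with scale normalization and 0 with only the groups compared. NRCWE-045 at 54 µg gave 0 with Cy5 alone, with only the groups compared and with a change of at least 1.5-fold, 2 and 3 with slide as a fixed or random block and 5 with array weights. NRCWE-043 at 18 µg gave 1 with slide as a fixed block or array weights.

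Between materials at 18 µg, NRCWE-045 against NRCWE-043 (2) gave 1 with processed signals, Cy5 alone, scale normalization, no filter, mean over probes, the robust variance, array weights or the fold threshold, and 4 with slide as a fixed block; NRCWE-045 against NRCWE-044 (1) gave 0 with processed signals, deposited values or slide as a fixed block. At 54 µg NRCWE-044 against NRCWE-043 (0) gave 1 with processed signals, deposited values, Cy5 alone, scale normalization, only the groups compared or array weights, and NRCWE-045 against NRCWE-043 (2) gave 1 with slide as a fixed block. The cause was not tested.

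Leaving out each array in turn gave 13 to 25, 25 to 27 and 0 to 4 against control at 54 µg (4 without replicate 35, Ddx58, Zbp1, Ifit1 and Eif2ak2), lowest for NRCWE-043 without its replicate 19 and highest without its replicate 3. It gave 0 to 1 for NRCWE-043 at 18 µg, 0 to 16 and 29 to 34 for the first 2 dose steps, and for the materials 3 to 5, 1 to 2 and 0 to 1 at 18 µg and 0 to 1 and 1 to 2 at 54 µg. No called gene changed sign. Of 3024 gene values recomputed, 2828 kept their direction and side of the threshold, 77 lost a call, 16 gained one and 103 that were not called changed sign. Most of the 3024 belong to results that were not called in the main fit and so could not lose a call. No paired analysis was possible because the sample numbers in the labels are unique, so no 2 groups share one; slides, which groups do share, were fitted as a fixed and as a random block, with the counts given above. Precision is limited by 5 arrays per group and by 4 members that were not scored above background on every array. Among these, Stat2 and Ifi44 each lacked a value on 1 array, which was counted as not above.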

Other observations

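Replicate 27 of NRCWE-045 at 18 µg was above the other 4 arrays of its group for 29 of 37 members. The same held for 32 of 74 further pathway genes, and both counts were made after its values were seen. The share of all features for which this array was the highest of its group is not given here. Whether the counts are particular to interferon genes was therefore not tested. The largest gaps were in GTPase genes that interferon gamma induces: Igtp exceeded the mean of the other 4 arrays by 2.23, Gbp4 by 1.94, Tgtp2 by 1.81, Iigp1 by 1.73, Gbp7 by 1.73, Gbp5 by 1.62 and Gbp3 by 1.59. For Gbp4 the value of 4.52 was above all 34 other arrays (1.58 to 3.49), and so was that of Psmb9, an immunoproteasome subunit (2.21 against -0.070 to 1.66). Ifng on this array was 1.16, against 0.25 to 0.39 in its group and up to 2.11 on other arrays. Cxcl9 was 1.17, against 0.21 to 0.61 in its group. Members outside the GTPases were also above the group, among them Oasl2 (1.66, the others 0.72 to 1.07), Oas2 (-0.50, the others -1.43 to -1.14) and Usp18 (-0.33, the others -0.94 to -0.66). Isg15 lay within its group's range at -1.01 (-1.45 to -0.94), and so did Cxcl10 at -0.59 (-1.88 to -0.018). This array had the highest marker mean of its group for 8 of 12 cell types and tissues, namely T and NK cells, plasmacytoid dendritic cells, monocytes, endothelium, alveolar type 2 cells, club cells, adipose tissue and erythroid cells. Their part in these values was not tested.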
